A study of Mus musculus with 23 samples.

Results

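The late myotube cultures of a C2C12 time course were compared between cells labelled Runx1KO and control cells (WT) on day 6 of differentiation. The comparison was between 6 of the 23 libraries of the series, 3 labelled Runx1KO and 3 WT, chosen by their column names. The model was fitted to all 23 libraries, which shared the estimate of the spread. C2C12 is a mouse myoblast line that leaves the cell cycle and fuses into multinucleated myotubes when serum is lowered. Growth medium held 20% fetal bovine serum and differentiation medium 2% horse serum, and poly(A) RNA was sequenced. The titles name the last time point day 6, whereas the design text gives 5 days, and the titles were followed. The sources used here do not say how Runx1 was disrupted, whether the knockout line is 1 clone, or whether replicates came from separate cultures. The p-values therefore measure the spread between libraries within the groups of the whole series, which may be technical. In bulk RNA, a change in the number of cells of a type and a change in RNA per cell cannot be told apart.

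Skeletal muscle differentiation proceeds in steps. Determination factors such as Myod1 commit the myoblast, myogenin (Myog) and the Mef2 factors switch on the contractile programme, membrane proteins drive fusion, and the myotube then assembles sarcomeres and the membrane system that releases and takes up calcium. Runx1 is a DNA-binding transcription factor of the Runt family that is low in innervated muscle and rises after denervation. Myoblasts and myotubes also secrete and remodel the collagen and laminin matrix on which they grow. Basic helix-loop-helix factors, Myod1 and Myog among them, bind short DNA sites called E-boxes.

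The total estimated count of the 6 libraries ran from 22277369 to 23684077. Levels are given as CPM (counts relative to library size, scaled by TMM, the trimmed mean of M-values) and differences as log2 fold change (log2FC), labelled KO minus WT, with the standard error (SE) from edgeR's quasi-likelihood F-test. A gene was called when its Benjamini-Hochberg adjusted p was under 0.05 over the 14187 genes tested. The first principal component of the 6 libraries held 78.2% of the variance and separated the genotypes, at -50.06 to -56.88 for labelled KO and 52.93 to 57.3 for WT. On day 6, 6082 genes (42.9%) were called, 3127 higher (22.0%) and 2955 lower (20.8%) in labelled KO. Counts of list members below are to be read against these shares. Without composition scaling 42% of calls were higher, and on the authors' TPM 34.9%, against 51.4% here. The median log2FC of all genes tested was 0.0037, and on log2(TPM + 0.1) it was -0.12. At least a 2-fold difference was called for 944 genes in the higher and 787 in the lower direction.

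The targeted gene went against its label. Its count was 297, 319.7 and 315 CPM in labelled KO replicates 1 to 3 and 146, 148 and 165 CPM in WT. The groups did not overlap and the labelled KO libraries were the higher ones (log2FC 1.02, SE 0.08, adjusted p = 6.11e-10, edgeR). A gene count does not show whether a transcript encodes protein, so every direction below rests on the labels. Of 161 tested genes whose symbols follow an interferon-response pattern, 132 were called higher and 7 lower. They are left out of the ranked genes below.

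Promoters of muscle genes are shown first, because their genes moved together and the E-box is the site of the myogenic factors. Sequences are the 250 bases before the transcription start in RefSeq's GRCm38.p6 table, 5′ to 3′ on the gene's strand, with every CANNTG match in capitals. A match is a description of letters and not a bound site. The 3 genes shown are those of myogenin, an alpha-actinin of the Z-disc and the muscle creatine kinase. Their promoters lie at chr1:134289754-134290003 (plus strand), chr13:12340733-12340982 (minus strand) and chr7:19410844-19411093 (plus strand).
Myog: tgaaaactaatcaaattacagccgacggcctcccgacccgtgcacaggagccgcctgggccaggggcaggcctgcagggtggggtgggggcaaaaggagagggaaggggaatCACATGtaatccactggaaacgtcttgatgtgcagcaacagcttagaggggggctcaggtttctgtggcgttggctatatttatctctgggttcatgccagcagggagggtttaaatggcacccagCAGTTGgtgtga
Actn2: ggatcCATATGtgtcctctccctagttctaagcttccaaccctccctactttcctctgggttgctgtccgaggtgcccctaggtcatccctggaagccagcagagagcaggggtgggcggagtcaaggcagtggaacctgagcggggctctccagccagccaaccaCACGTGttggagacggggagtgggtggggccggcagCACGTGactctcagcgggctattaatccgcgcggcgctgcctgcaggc
Ckm: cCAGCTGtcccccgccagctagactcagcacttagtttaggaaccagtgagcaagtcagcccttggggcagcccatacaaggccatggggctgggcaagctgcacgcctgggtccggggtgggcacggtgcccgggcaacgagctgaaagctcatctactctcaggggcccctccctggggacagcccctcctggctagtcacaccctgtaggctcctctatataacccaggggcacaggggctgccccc

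The Myog window held 2 E-boxes, starting 138 and 12 bases before the transcription start, the Actn2 window 3 and the Ckm window 1, at its far end. The window of Actc1, the cardiac sarcomeric actin, held none. Of the 60 promoters of sarcomere and calcium-handling list genes called higher (51 genes), 78.3% held CANNTG, against 57.7% of the 13288 promoters of all tested genes. CAGCTG, which is contained in CANNTG, was present in 36.7% against 12.5%. TGTGGT, the core of the Runx site, read on both strands, was present in 26.7% against 10.7%. For all genes called higher by at least 2-fold outside the interferon pattern, CANNTG stood at 70.1% and TGTGGT at 11.7%. For genes called lower by at least 2-fold, again outside that pattern, CANNTG stood at 62.6% and TGTGGT in 77 of 644 promoters. Mean GC content was 56.8% in the sarcomere and calcium-handling promoters and 59.7% over all tested genes, and its part in the shares was not tested. Of the 14187 tested genes, 10422 matched a promoter by symbol.

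Contractile genes were higher in labelled KO in each of 3 sarcomere lists. Of 19 tested genes of the thick filament list, 16 were called higher, with a list median log2FC of 2.16, against 22.0% called higher among all genes. Of 20 thin filament genes 17 were called higher (median 1.94), and of 18 genes of the Z-disc and sarcomere scaffold 15 (median 1.63). Summed TPM, the authors' length-normalised level, ran from 17170 to 20660 for the thin filament list in labelled KO and from 4868 to 5074 in WT. For the thick filament list it ran from 7464 to 8917 against 1120 to 1462. Both sums were thus separated by genotype in all 6 libraries.

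Acta1, the skeletal alpha-actin, stood at 6046, 7429.7 and 7381 CPM in labelled KO and at 1153, 975 and 1001 CPM in WT (log2FC 2.74, SE 0.23, adjusted p = 1.09e-09, edgeR). Actc1, the cardiac actin that embryonic muscle also uses, stood at 873, 1008 and 1039 CPM against 60.6, 45.6 and 55.5 CPM (log2FC 4.17, SE 0.26). Neither gene's groups overlapped, and all 3 labelled KO libraries were the higher ones. Tnnt2, a troponin T of the calcium switch on the thin filament, stood at 519, 768 and 775 CPM against 107, 108 and 87 CPM (log2FC 2.77, SE 0.14). The lowest labelled KO library was replicate 1 for each of these genes. Tnnc1, a troponin C that binds calcium, rose by a log2FC of 2.23 (SE 0.13). Tnnc2, the fast troponin C, had a log2FC of 2.71 (SE 0.14), but 74% of its exon bases overlap Ube2c on the opposite strand, and the use of strand in counting is not given in the sources used here. The tropomyosins Tpm1 (log2FC 0.22, adjusted p = 0.10) and Tpm3 (log2FC -0.16, adjusted p = 0.057) were not called. Tpm1 was called higher in 4 of the 16 alternatives, on both TPM scales (log2FC 0.22), without KO replicate 1 (0.32) and without WT replicate 2 (0.34), and Tpm3 was called lower in 9.

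In the thick filament, Myl4, the embryonic essential light chain of myosin, stood at 682, 853 and 906 CPM in labelled KO and at 64.6, 52.3 and 57.9 CPM in WT (log2FC 3.80, SE 0.14, adjusted p = 4.80e-16, edgeR). Mylpf, the fast regulatory light chain and the most abundant member by TPM, had a log2FC of 2.65 (SE 0.18). Unc45b, the chaperone that folds myosin heads, stood at 77.3, 86.3 and 89.1 CPM against 8.72, 8.16 and 9.23 CPM (log2FC 3.27, SE 0.19). For Myl4, Mylpf and Unc45b the labelled KO libraries were all above the WT libraries. Myh7, the slow heavy chain, stood at 4.94, 6.24 and 6.88 CPM against 0.34, 0.84 and 0.88 CPM. Mybpc2, the fast myosin-binding protein C, rose by a log2FC of 3.51 (SE 0.30). Myh7b, an ancient slow-type heavy chain, was the member called lower (log2FC -1.28). Myh2 was not called (log2FC 0.66, adjusted p = 0.067), except without WT replicate 1 (log2FC 0.87), and Myh4 was not called (log2FC -0.62). Myh2 and Myh4 lie, with Myh1 and Myh3, in a cluster of closely similar heavy chain genes, so the division of reads among these is uncertain.

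The widest gap among the sarcomere genes was that of Actn2, an alpha-actinin that crosslinks actin at the Z-disc. It stood at 35.7, 41.3 and 42 CPM in labelled KO and at 0.26, 0.31 and 0.29 CPM in WT (log2FC 7.08, SE 0.30, adjusted p = 1.02e-12, edgeR). Its fast-fibre relative Actn3 went the other way, at 147, 155 and 142 CPM against 202, 264 and 245 CPM (log2FC -0.68, SE 0.09, adjusted p = 1.72e-06). The groups did not overlap for either. Xirp2, an actin-binding protein with Xin repeats, stood at 7.72, 8.82 and 7.36 CPM against 0.21, 0.13 and 0 CPM. Csrp3, the muscle LIM protein, had a log2FC of 3.43 (SE 0.24). Des, the intermediate filament desmin and the most abundant scaffold member, had a smaller difference, at 2475, 2941 and 2971 CPM against 1463, 1762 and 1499 CPM (log2FC 0.83, SE 0.09).

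**Figure D1:**
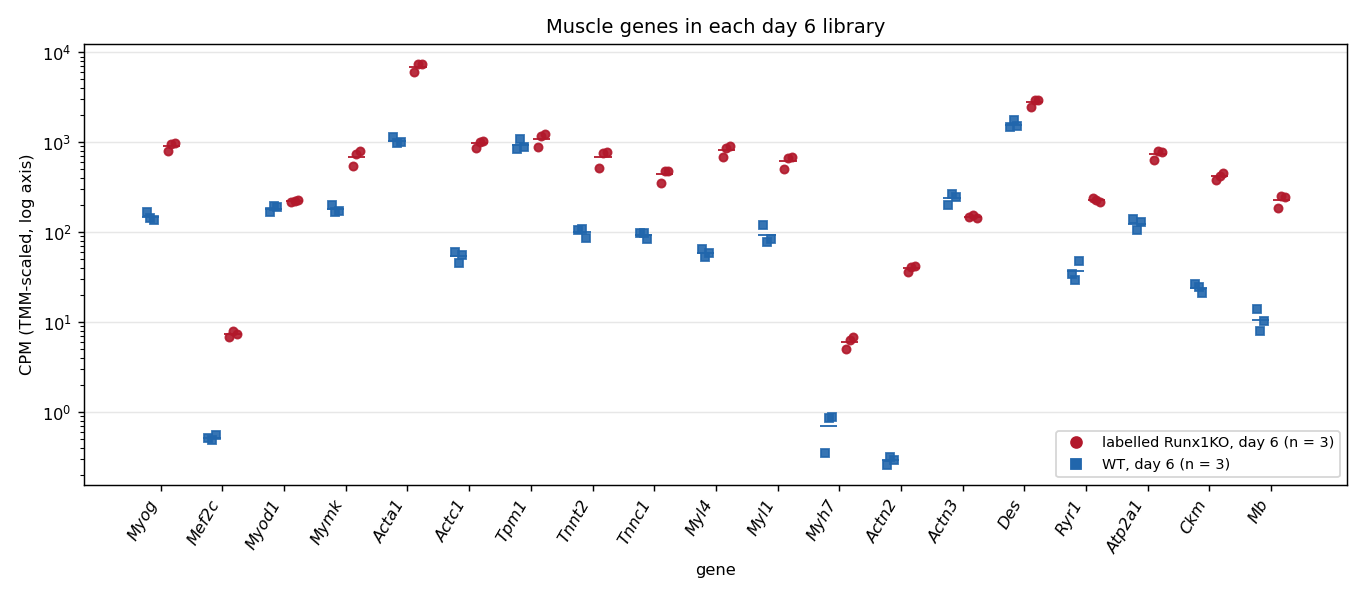
CPM on a log axis of 19 muscle genes in each day 6 library, labelled KO as circles and WT as squares, with the group mean as a line (n = 3 each). The groups are apart for all genes shown except Tpm1, and Actn3 is the gene that is lower in labelled KO.

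Within gene families the isoform mix also differed, as shares of a family's summed TPM, with families and the members outside the naming rule chosen after their values were seen. Actc1 made up 12.8%, 12.1% and 12.5% of sarcomeric actin in labelled KO and 5.07%, 4.54% and 5.33% in WT. Actn2 made up 19.8% ± 0.769 (SD, n = 3) of the alpha-actinin pair in labelled KO and 0.115% ± 0.00716 (SD, n = 3) in WT. Myl4 made up 60.5% ± 0.668 of the Myl1 and Myl4 sum against 41.7% ± 3.37 (SD, n = 3). The slow or cardiac isoforms of other families did not move 1 way. Casq2, the slow and cardiac calsequestrin, made up 79.7% of its pair with Casq1 in labelled KO against 75.4% in WT, and Myh7 made up 0.77% of heavy chain TPM against 0.247% (means, n = 3), both larger in labelled KO. Others took a smaller share there. Tnnc1 made up 68.2% ± 0.703 of troponin C against 74.9% ± 0.743, and Tnni1 64.5% ± 2.71 of troponin I against 70.5% ± 1.62 (SD, n = 3). Atp2a2, the slow and cardiac calcium pump, made up 51.0% ± 1.84 of its pair with Atp2a1 against 58.2% ± 1.53 (SD, n = 3). Myh3, the embryonic heavy chain, was the main heavy chain in both groups, at 74.8% ± 3.53 against 64.5% ± 4.76 (SD, n = 3). Myh1, an adult fast heavy chain, made up 23.3% ± 3.17 against 32.2% ± 4.64. For every share named here the groups did not overlap. An exact permutation test of 3 against 3 cannot give a two-sided p below 0.10, which is the value each share reached.

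**Figure D2:**
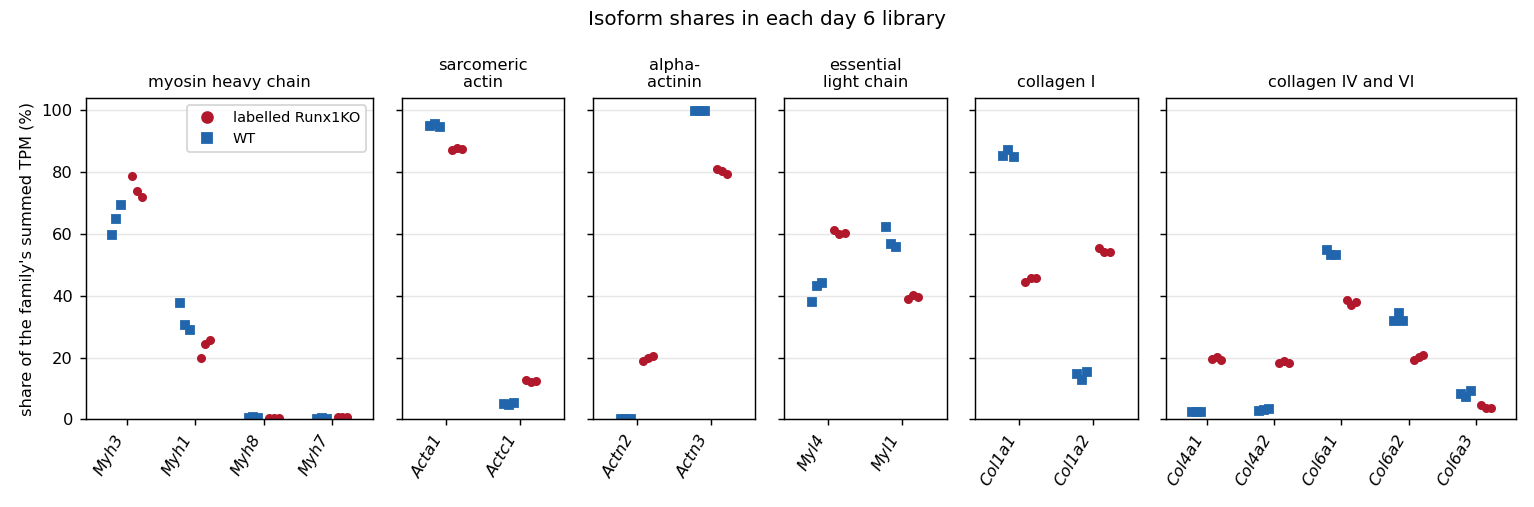
Share of a family's summed TPM (percent) taken by each isoform in each day 6 library, WT as squares and labelled KO as circles. Actc1, Actn2 and Myl4 take larger shares in labelled KO, and within collagen I the share of Col1a1 is 45.4% in labelled KO and 85.7% in WT.

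The fast, slow and developmental fibre lists were all higher, so the difference was not limited to 1 fibre type. Of 13 fast isoform genes 9 were called higher (median log2FC 2.44), of 10 slow isoform genes 8 (median 2.00) and of 7 developmental isoform genes 6 (median 1.55). Pvalb, the fast-fibre calcium buffer, stood at 0.92 CPM at most in any library. The slow ventricular light chains Myl2 and Myl3 reached only 8 counts and 1 count on day 6 and were not tested.

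Genes of excitation-contraction coupling, which link the action potential to calcium release, were called higher in 21 of 22 tested cases (median log2FC 1.45). Ryr1, the calcium release channel, stood at 241, 231 and 216 CPM in labelled KO and at 34.2, 29.6 and 47.5 CPM in WT (log2FC 2.63, SE 0.18, adjusted p = 2.41e-11, edgeR). Trdn, triadin, which anchors calsequestrin beside that channel, stood at 43.1, 56.9 and 54.5 CPM against 4.9, 4.39 and 4.49 CPM (log2FC 3.49, SE 0.23). Neither overlapped between groups. Atp2a1, the fast calcium pump that refills the store, stood at 635, 803 and 781 CPM against 138, 105 and 130.2 CPM (log2FC 2.57, SE 0.15); 21.9% of its exon bases overlap Rabep2 on the opposite strand. Ryr3, the minor release channel, was not called (log2FC -0.79, adjusted p = 0.17).

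All 12 genes of the neuromuscular synapse list were called higher, by a median log2FC of 0.94. Lrp4, the agrin receptor, stood at 156, 158 and 157 CPM against 49.3, 46.6 and 59.5 CPM (log2FC 1.60, SE 0.11, adjusted p = 2.08e-11, edgeR), and Agrn, its ligand, had a log2FC of 1.33 (SE 0.10). Chrna1, the acetylcholine receptor alpha subunit, rose by a log2FC of 0.54 (SE 0.09). Among ion channels and pumps of excitability 8 of 14 were called higher and 2 lower. Kcnj2, the inward rectifier potassium channel that sets the resting potential, went against the rest at 1.15, 1.29 and 0.44 CPM in labelled KO and 7.26, 9.45 and 9.02 CPM in WT (log2FC -3.15, SE 0.26, adjusted p = 8.31e-10). Scn4a, the adult muscle sodium channel, had a log2FC of 1.45 (SE 0.23).

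**Figure D3:**
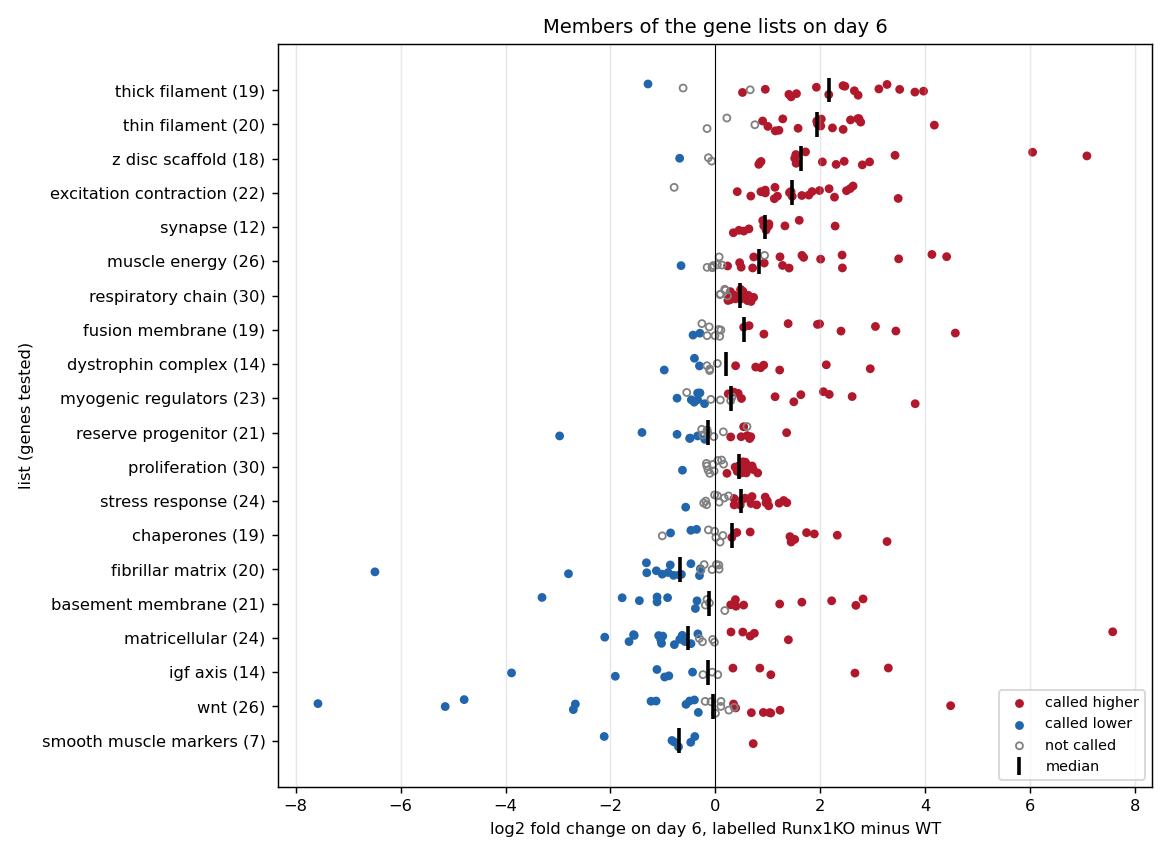
Log2FC on day 6 (labelled KO minus WT) of each tested member of 20 gene lists, filled where called and open where not, with the list median as a bar. The sarcomere, calcium-handling and synapse lists lie to the right, fibrillar matrix and matricellular lists to the left, and the basement membrane and Wnt lists spread to both sides.

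Among muscle energy genes the widest differences were those of muscle-specific members. Of 26 tested, 17 were called higher and 1 lower, with a median log2FC of 0.83, which was 0.50 among genes with a mean count of at least 50 and 0.49 on log2(TPM + 1). Mb, myoglobin, stood at 186, 250.1 and 243 CPM in labelled KO and at 13.8, 7.85 and 10.2 CPM in WT (log2FC 4.41, SE 0.20, adjusted p = 3.51e-13, edgeR). Of Mb exon bases, 27.6% overlap Gm49540 on the opposite strand. Ckm, the muscle creatine kinase, stood at 385, 424 and 454 CPM against 26.4, 24.5 and 21.3 CPM (log2FC 4.13, SE 0.20). Cox6a2, a muscle subunit of cytochrome oxidase, had a log2FC of 3.49 (SE 0.18). Glycolytic enzymes of the list did not move alike. The muscle-type Pfkm stood at 262, 320 and 311 CPM in labelled KO and at 125, 128 and 127 CPM in WT. Eno3, also muscle-type, overlapped between groups, at 250, 291 and 287 CPM against 263, 320 and 270 CPM. Aldoa, the most abundant member, had a log2FC of 0.46 (SE 0.10) and Pgk1 of -0.16 (adjusted p = 0.12, not called). Pgk1 was called lower in 4 of the 16 alternatives, with library size alone (log2FC -0.23), on both TPM scales (-0.29) and without day 1 KO replicate 2 (-0.18). Genes of the general respiratory chain were called higher in 25 of 30 cases, all by less than 2-fold (median log2FC 0.47), with Atp5b, an ATP synthase subunit, at a log2FC of 0.64 (SE 0.06) and Uqcrb not called (log2FC 0.19).

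Of 23 tested transcription factors and other regulators of the programme, 11 were called higher and 7 lower. Myog stood at 793, 956 and 977 CPM in labelled KO and at 168, 142 and 137 CPM in WT (log2FC 2.61, SE 0.26, adjusted p = 1.78e-08, edgeR). Mef2c stood at 6.79, 7.87 and 7.27 CPM against 0.52, 0.49 and 0.55 CPM (log2FC 3.81, SE 0.38). Neither factor overlapped between groups. Myod1 was not called at 219, 224 and 229 CPM against 165, 196 and 188 CPM (log2FC 0.29, SE 0.15, adjusted p = 0.12); it was called higher in 3 of the 16 alternatives. Pax7, the stem cell factor, was lower at 30.1, 20.6 and 21.4 CPM against 38.5, 36.2 and 45 CPM (log2FC -0.73, SE 0.12). Id1, an inhibitor of the myogenic factors that is usually high in growing myoblasts, was higher in labelled KO at 19.8, 20.4 and 21.6 CPM against 5.07, 5.85 and 3.9 CPM (log2FC 2.06, SE 0.15).

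Among genes of fusion and of the muscle membrane, 10 of 19 were called higher and 2 lower. The median log2FC was 0.54, or 0.33 among genes with a mean count of at least 50. Mymk, myomaker, the fusion protein of the membrane, stood at 543, 733 and 793 CPM in labelled KO and at 199, 167 and 171 CPM in WT (log2FC 1.95, SE 0.20, adjusted p = 3.87e-08, edgeR). Itgb1bp2, melusin, which binds an integrin tail, stood at 102, 137 and 142 CPM against 5.29, 5.32 and 5.37 CPM (log2FC 4.58, SE 0.19). Cav3, the muscle caveolin, and Trim72, a membrane repair protein, had log2FC of 3.44 (SE 0.20) and 3.05 (SE 0.16). Of Trim72 exon bases, 27.6% overlap Gm15533 on the opposite strand. The adhesion molecule Ncam1 was not called (log2FC 0.07) and Anxa1 was lower (log2FC -0.43, SE 0.08). Ncam1 was called higher on both TPM scales (log2FC 0.58 and 0.59). Of 14 genes of the dystrophin complex 7 were called higher and 3 lower, led by Sntb1, a syntrophin (log2FC 2.95, SE 0.21). Sgcd, a sarcoglycan, was lower (log2FC -0.97, SE 0.14). Dmd itself reached only 7 counts on day 6 and was not tested.

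RNA-binding proteins of muscle splicing were mixed, with 7 of 15 called higher and 3 lower. Srpk3, a kinase of splicing factors, had a log2FC of 2.18 (SE 0.21), Rbm24, a muscle splicing factor, of 1.20 (SE 0.18), Mbnl3 of -1.42 (SE 0.15) and Mbnl1 of -0.53 (SE 0.09). Of 20 genes of muscle atrophy and autophagy 7 were called higher and 5 lower. In both lists the share called lower was near the 20.8% of all genes. Asb2, a muscle ubiquitin ligase subunit, stood at 56.5, 64.1 and 60.8 CPM in labelled KO and at 7.05, 5.59 and 5.87 CPM in WT (log2FC 3.29, SE 0.15, adjusted p = 3.80e-14, edgeR). Fbxo32, the atrophy ligase atrogin, was lower (log2FC -0.49, SE 0.11), as was Gabarapl1 of the autophagosome (log2FC -0.70, SE 0.09). Of Gabarapl1 exon bases, 28.3% overlap 1700101I11Rik on the opposite strand.

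Of 30 proliferation genes 20 were called higher in labelled KO, none by 2-fold, and 1 lower, with a median log2FC of 0.45 (0.29 on log2(TPM + 1)). Plk1, a mitotic kinase, stood at 57.6, 57.1 and 56.2 CPM in labelled KO and at 27.3, 35.4 and 34.9 CPM in WT (log2FC 0.81, SE 0.13, adjusted p = 2.27e-05, edgeR). Rrm2, the ribonucleotide reductase subunit of S phase, was the member called lower, at 84.8, 80.1 and 77 CPM against 129, 109 and 135 CPM (log2FC -0.63, SE 0.10). Pcna, the replication clamp, was not called (log2FC -0.14, adjusted p = 0.26), and it was called lower on both TPM scales. Of 16 genes of cell cycle exit 6 were called higher and 4 lower. Cdkn1a, the inhibitor p21 that rises in differentiating myoblasts, stood at 959, 1225 and 1251 CPM against 587, 609.6 and 482 CPM (log2FC 1.03, SE 0.12). Rb1 was higher (log2FC 0.77, SE 0.12) and E2f1, the factor it holds back, lower (log2FC -0.79, SE 0.11).

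Genes of the fibrillar matrix were mostly lower in labelled KO. Of 20 tested genes of the fibrillar matrix list, 14 were called lower, against 20.8% of all genes, and the other 6 were not called (median log2FC -0.67). Of 24 matricellular genes 14 were called lower and 6 higher (median -0.52). Summed TPM of the fibrillar list ran from 4961 to 5556 in labelled KO and from 9310 to 11240 in WT. Fn1, fibronectin and the most counted gene in WT, stood at 11285, 8634 and 7770.4 CPM against 18739, 17980.0 and 21844 CPM (log2FC -1.08, SE 0.12, adjusted p = 9.84e-08, edgeR). Col3a1, the collagen III chain, stood at 3652, 3649 and 3517 CPM against 6700.3, 7617 and 7518 CPM (log2FC -1.01, SE 0.09). Neither overlapped between groups.

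Collagen I showed unequal change of its chains. Col1a1 stood at 903, 952 and 905 CPM in labelled KO and at 5451, 7581 and 6194 CPM in WT (log2FC -2.80, SE 0.19, adjusted p = 2.29e-11, edgeR). Col1a2, the partner chain of the same triple helix and named after its value was seen, was not called (log2FC 0.07, SE 0.08, adjusted p = 0.52). By TPM, Col1a1 made up 44.6%, 45.8% and 45.9% of the chains in labelled KO and 85.3%, 87.1% and 84.8% in WT. Pcolce, which enhances collagen processing, was not called (log2FC 0.02). Among the matricellular genes, Sparc (log2FC -1.03, SE 0.08) and Bgn, biglycan (log2FC -0.78, SE 0.09), were among the largest CPM losses of all genes, and Fbln5, an elastic fibre protein, had a log2FC of -2.11 (SE 0.12). Postn, periostin, went up at 679, 693 and 665 CPM against 384, 441 and 460.0 CPM (log2FC 0.66, SE 0.12), and Ctgf, a growth factor-binding matrix protein, had a log2FC of 0.52 (SE 0.14) that was no longer called on either TPM scale.

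The basement membrane list was divided, with 9 of 21 called higher and 8 lower. Col4a1, a chain of the collagen IV network, stood at 524, 517 and 484 CPM in labelled KO and at 72.3, 84.7 and 81.2 CPM in WT (log2FC 2.68, SE 0.08, adjusted p = 1.85e-17, edgeR). Its partner Col4a2, which lies beside it, had a log2FC of 2.22 (SE 0.09), and Itga6, a laminin-binding integrin chain, of 2.82 (SE 0.13). Lama4, a laminin chain, stood at 4.46, 3.83 and 4.22 CPM against 38.3, 40 and 45.4 CPM (log2FC -3.30, SE 0.17). Nid2, which links laminin to collagen IV, had a log2FC of -1.78 (SE 0.10) and Col6a3, of the collagen VI network, of -1.45 (SE 0.16). No group overlapped among these. In TPM shares of the collagen IV and VI chains, the Col4a1 share was 19.7% ± 0.558 against 2.32% ± 0.0675 (SD, n = 3). Of 21 matrix turnover genes 5 were called higher and 10 lower; Adamts5, an aggrecanase, had a log2FC of 2.08 (SE 0.11) and Mmp2, a gelatinase, of -1.25 (SE 0.07).

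**Figure D4:**
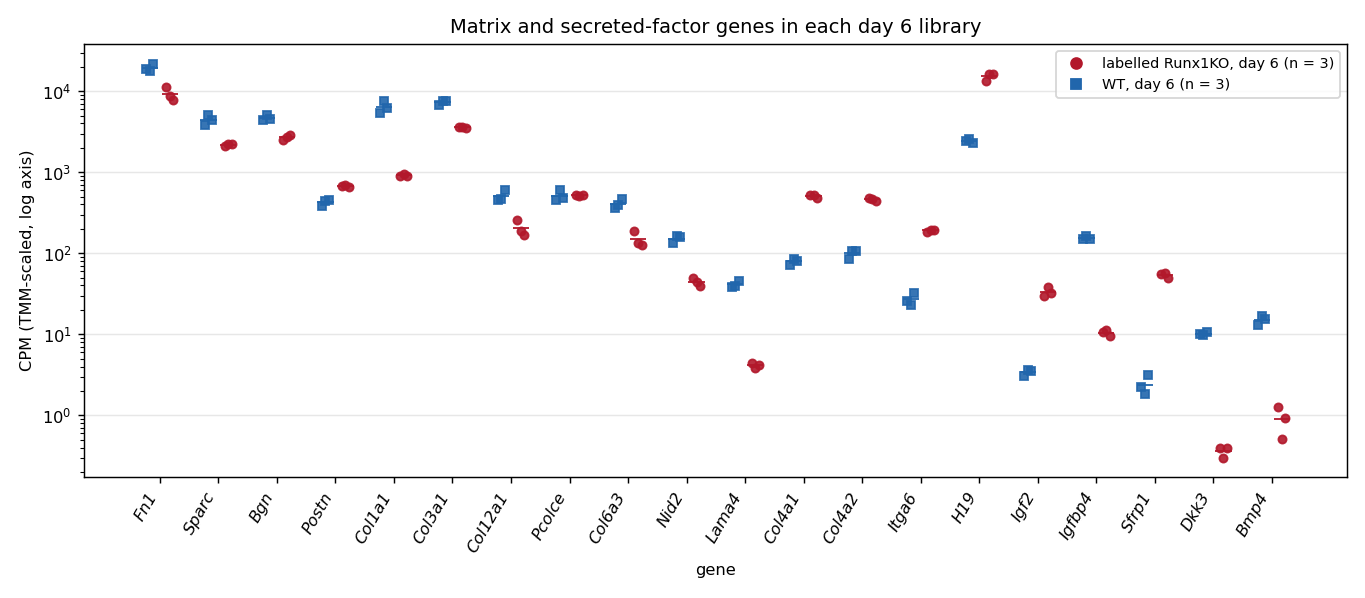
CPM on a log axis of 20 matrix and secreted-factor genes in each day 6 library, labelled KO as circles and WT as squares, with the group mean as a line (n = 3 each). Col1a1, Lama4, Igfbp4, Dkk3 and Bmp4 lie lower in labelled KO, Col4a1, Itga6, H19, Igf2 and Sfrp1 higher, and Pcolce overlaps.

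The insulin-like growth factor genes included the most counted transcript of the labelled KO libraries. H19, the long non-coding RNA beside Igf2 at an imprinted locus, stood at 13511, 16443 and 16366 CPM against 2449, 2601 and 2271 CPM (log2FC 2.66, SE 0.10, adjusted p = 5.94e-16, edgeR). Igf2, the growth factor made by differentiating myoblasts, stood at 29.3, 38.5 and 32.8 CPM against 3.05, 3.59 and 3.56 CPM (log2FC 3.30, SE 0.19). Both members of the imprinted pair were higher in every labelled KO library; 62.8% of Igf2 exon bases also belong to the read-through model Gm49394. Igfbp4, a binding protein that sequesters these factors, stood at 10.6, 11.2 and 9.45 CPM against 148, 165 and 149.6 CPM (log2FC -3.89, SE 0.13). Igf1 itself was lower, from 0.65 to 1.9 CPM against 5.06 to 5.37 CPM (log2FC -1.91, SE 0.35). In all, 5 of 14 genes were called higher and 6 lower.

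Genes of secreted Wnt and BMP modulators moved in both directions. Sfrp1, a secreted Wnt antagonist, stood at 55.8, 56.4 and 49 CPM in labelled KO and at 2.23, 1.82 and 3.1 CPM in WT (log2FC 4.49, SE 0.13, adjusted p = 1.85e-17, edgeR). Dkk3, of the Dickkopf family, stood at 0.40, 0.30 and 0.39 CPM against 10.2, 9.8 and 10.6 CPM (log2FC -4.79, SE 0.27). Rspo1, an R-spondin that strengthens Wnt signals, was lower (log2FC -2.67, SE 0.17). Of 26 Wnt genes 8 were called higher and 11 lower; 4 were called higher without WT replicate 1, and 5 without KO replicate 2 or on log2(TPM + 0.1). Bmp4 stood at 1.28, 0.52 and 0.91 CPM against 13.2, 17 and 15.4 CPM (log2FC -4.07, SE 0.24). Of 26 TGF-beta and BMP genes 5 were called higher, such as the receptor Tgfbr1 (log2FC 1.48, SE 0.12), and 9 lower, such as the antagonist Grem1 (log2FC -1.09, SE 0.15). Among 17 growth factor receptors 3 were called higher and 8 lower. In neither list did the share called higher exceed the 22.0% of all genes. Ntrk3, a neurotrophin receptor, had a log2FC of -5.24 (SE 0.29), Pdgfrb of -1.03 (SE 0.09), and Erbb3, a neuregulin receptor, of 2.30 (SE 0.24).

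Genes of reserve and progenitor cells, the unfused mononuclear fraction, split evenly, with 7 of 21 called higher and 7 lower. Cd34, a surface glycoprotein of quiescent satellite cells, stood at 28.1, 24 and 24.5 CPM in labelled KO and at 181, 218 and 199 CPM in WT (log2FC -2.97, SE 0.12, adjusted p = 2.80e-15, edgeR). Fgfr4, a growth factor receptor of young myocytes, had a log2FC of -1.40 (SE 0.14). The Notch target Heyl was higher (log2FC 1.36, SE 0.18), as was Dll1, a Notch ligand (log2FC 0.68, SE 0.15). Of Dll1 exon bases, 20.5% overlap A930024N18Rik on the opposite strand. The Notch genes of the list did not all rise. Hey1 stood higher, at 19.1, 19.4 and 20.8 CPM against 13.6, 12.9 and 12.5 CPM. Notch3 stood lower, at 214, 181 and 186 CPM against 246, 261 and 304 CPM. Notch2, Jag1 and Hes1 overlapped between groups.

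Of 24 genes of the stress response list, which joins amino acid and endoplasmic reticulum stress genes, 15 were called higher, 1 lower and 8 not called (median log2FC 0.49). Phgdh, the first enzyme of serine synthesis, stood at 266, 300.3 and 301 CPM in labelled KO and at 115, 121 and 101 CPM in WT (log2FC 1.36, SE 0.12, adjusted p = 1.75e-09, edgeR). Psat1, the next enzyme of that pathway, had a log2FC of 1.22 (SE 0.08) and Slc7a5, a transporter of large amino acids, of 1.30 (SE 0.12). Atf4, the factor that drives these genes, had a smaller log2FC of 0.47 (SE 0.10), its relative Atf5 fell by 0.57 on the log2 scale (SE 0.17), and Hsp90b1 of the endoplasmic reticulum was not called (log2FC 0.07). Chaperones were called higher in 10 of 19 cases and lower in 3 (median log2FC 0.31, or 0.19 on both TPM scales). Unc45b, which is also in the thick filament list, led the chaperones. The muscle small heat shock proteins Hspb7 (log2FC 2.32, SE 0.15) and Hspb8 (log2FC 1.74, SE 0.10) were higher too, while Dnajb1 was lower (log2FC -0.36, SE 0.07). Of 26 genes of p53 and apoptosis 7 were called higher and 8 lower, or 14 lower on either TPM scale; Eda2r, of the tumour necrosis factor receptor family, had a log2FC of 1.66 (SE 0.14). Cholesterol synthesis genes were mostly not called (15 of 21); 3 were called higher and 3 lower, and 1 to 9 lower across the alternatives.

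Across all genes outside the interferon pattern, sarcomere genes shared the top with genes of other kinds. Besides Actn2 and Xirp2, the 10 most positive included Myo18b, an unconventional myosin of the sarcomere, at 14.6, 16.3 and 17 CPM against 0.09, 0.18 and 0.13 CPM. They also included Rhox5, a homeobox gene of the X chromosome, at 51.4, 65 and 71.6 CPM against 0.56, 0.80 and 0.25 CPM (log2FC 6.87, SE 0.21, adjusted p = 3.53e-17, edgeR), and Cd36, a fatty acid transporter, at 13, 18.9 and 14.5 CPM against 0.30, 0.27 and 0.17 CPM. Plet1, Il20rb, Serpinb2, Cfb and Csprs completed them, at log2FC from 5.06 to 5.46. Cfb, complement factor B, shares 79.5% of its exon bases with the read-through model Gm20547, and Csprs could not be matched to the annotation.

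At the other end some genes were at or near 0 in labelled KO. Hs3st1, a heparan sulfate sulfotransferase, had a count of 0 in all 3 labelled KO libraries and stood at 13.2, 18.1 and 14.5 CPM in WT, at least 117-fold lower against a floor of 3 counts per library. Bnc1, the zinc finger protein basonuclin, was likewise at 0 against 12.2, 12.2 and 13.3 CPM, at least 96.2-fold lower. The floors cover counting error only. Scara3, a scavenger receptor-like protein, stood at 0.13, 0 and 0 CPM against 14.8, 17.3 and 16.4 CPM. Adm, the peptide hormone adrenomedullin, stood at 0.40, 0.30 and 0.22 CPM against 24.1, 23.6 and 16.9 CPM (log2FC -6.12, SE 0.30). Scara5, Lmbr1, Unc5c, Igsf10, R3hdml and St8sia2 completed the 10 most negative, each at 0.35 CPM or less in every labelled KO library. By CPM difference, the largest gains were those of H19, Acta1, Eef2 (log2FC 0.49, SE 0.06), Des and Aldoa, and the largest losses those of Fn1, Col1a1, Col3a1, Sparc and Bgn.

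The difference on day 6 was also set against that on day 3 in the same model. The interaction was called for 903 genes in the positive direction (6.36%) and 850 in the negative (5.99%), together 1753. The total was 1125 without day 3 KO replicate 3 and 2837 without day 1 KO replicate 2, a library of neither day; without it the median day 6 log2FC of all genes was -0.022. In the stress response list, 18 of 24 genes had a called positive interaction. Slc7a5 stood at mean CPM of 164 in labelled KO and 199 in WT on day 3, and at 434 and 176 on day 6 (interaction log2FC 1.58, SE 0.18, adjusted p = 1.26e-05, edgeR). The list median of the genotype difference was -0.15 on day 3 and 0.49 on day 6. In the proliferation list 24 of 30 interactions were called negative, and the list median went from 0.98 to 0.45. Plk1 stood at 152 against 57.9 CPM on day 3 and at 57 against 32.6 CPM on day 6 (interaction log2FC -0.58, SE 0.18, adjusted p = 0.036).

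Part of the contractile genes moved further apart from day 3 to day 6. The interaction was called positive for 13 of 20 thin filament genes, 7 of 18 Z-disc and scaffold genes and 14 of 22 genes of excitation-contraction coupling, and negative for none of these. In the thick filament list 7 of 19 interactions were called positive and 2 negative. In the fast isoform list 5 of 13 were called positive and 2 negative, with a median interaction log2FC of 0.07. Mean Acta1 went from 2312 to 6952 CPM in labelled KO and from 1171 to 1043 CPM in WT (interaction log2FC 1.76, SE 0.31, adjusted p = 0.00058, edgeR). Mean Ckm went from 235 to 421 CPM in labelled KO and from 55.3 to 24.1 CPM in WT (interaction log2FC 2.04, SE 0.25, adjusted p = 3.83e-05). Actc1 was similar in labelled KO on both days, at 945 and 973 CPM, while WT went from 231 to 53.9 CPM (interaction log2FC 2.14, SE 0.33). The widening thus came with higher levels in labelled KO for Acta1 and Ckm and with lower mean levels in WT for Actc1 and Ckm. Col1a1 narrowed, from 380.5 against 5441 CPM on day 3 to 920.0 against 6409 CPM on day 6 (interaction log2FC 1.04, SE 0.25, adjusted p = 0.0077), and the H19 interaction was not called (log2FC -0.03, SE 0.13, adjusted p = 0.92). Of 3901 genes called on both days, 3774 had the same sign and 127 the opposite sign.

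**Figure D5:**
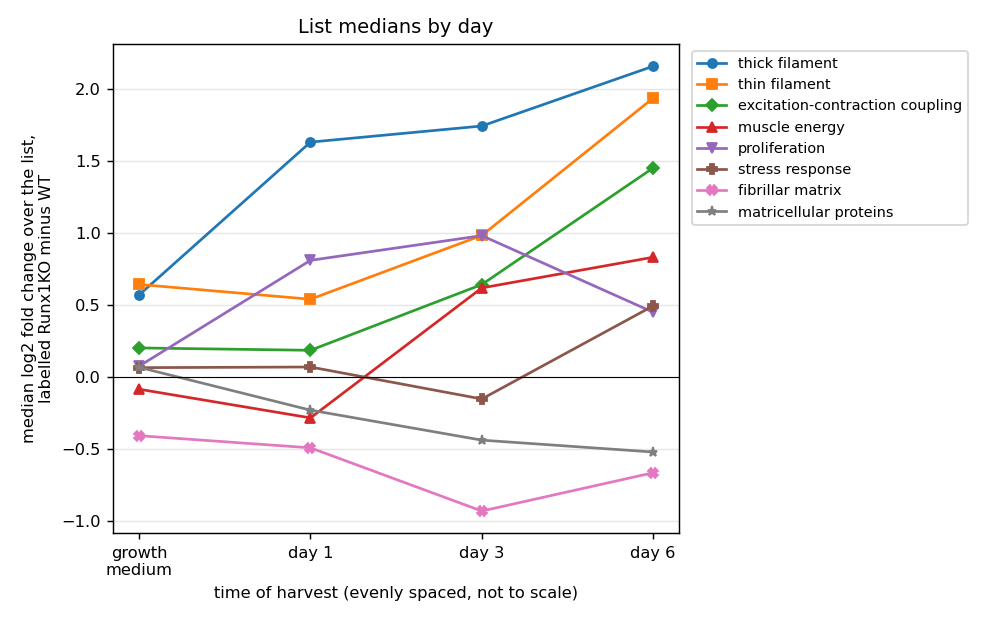
Median log2FC (labelled KO minus WT) of 8 gene lists in growth medium and on days 1, 3 and 6. The thin filament list goes from 0.98 on day 3 to 1.94 on day 6, the stress response list from -0.15 to 0.49 and the proliferation list from 0.98 to 0.45.

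Markers of other cell types were examined beside these results. Smooth muscle markers were called lower in 6 of 7 tested cases and higher in 1, with a summed TPM of 1525 to 1577 in labelled KO and 2237 to 2472 in WT. Acta2, which myoblasts also express, carried most of that sum (log2FC -0.39, SE 0.15, adjusted p = 0.035, edgeR) and lost its call without each labelled KO library in turn and without WT replicate 2. Myh11, the defining smooth muscle heavy chain, had at most 5 counts. The summed TPM of fibroblast markers was 1082 to 1197 against 259.2 to 287.7, nearly all from Ly6a, at 471, 565 and 583 CPM against 99.1, 101 and 74.4 CPM. Of the 6 fibroblast markers tested, 2 were called higher and 2 lower, with a median log2FC of -0.30. Dcn, decorin, was the other higher one (log2FC 0.74, SE 0.15), and Dpt (log2FC -2.28, SE 0.42) and Cd248 (log2FC -0.56, SE 0.17) were lower; Cd248 lost its call without WT replicate 2 (log2FC -0.45). Pdgfra was not called (log2FC -0.04), and Thy1 had 0 counts. Adipocyte markers summed to 17.81 to 21.58 TPM in labelled KO and 32.17 to 35.05 in WT, and neural markers to 24.43 to 27.9 against 45.66 to 53.8. Immune and endothelial markers summed to 15.8 to 17.52 against 5.83 to 10.02 TPM, with Cd68, a lysosomal protein of macrophages, at 9.44, 11 and 11.5 CPM against 4.77, 2.71 and 2.47 CPM (log2FC 1.68, SE 0.26). Csf1r went the other way, at 0.62, 0.47 and 0.61 CPM against 3.01, 2.26 and 1.76 CPM. Of the 3 immune and endothelial markers tested, 1 was called higher and 1 lower, with a median log2FC of -0.058. The low sums of the adipocyte, neural, and immune and endothelial lists were thus apart between the genotypes. The first 2 were lower in labelled KO. The last was higher there, and Cd68 was its marker of highest CPM in every library. Bone and cartilage markers overlapped at 59.5 to 76.8 against 70.13 to 94.62 TPM. The defining markers Ptprc, Adgre1 and Adipoq had at most 1 count. The part of these markers in the differences above was not tested.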

How the data were processed

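The authors deposited estimated counts per gene, as whole numbers, and TPM (abundance normalised by the authors for transcript length and depth) for 23 libraries in 8 groups of 3, except 2 for WT in growth medium. The submitters' processing notes name Bowtie2, RSEM and the mm10 build. Versions, annotation and strand setting are not given in the sources used here. edgeR 4.0.16 in R 4.3.3 was fitted to the counts (filterByExpr with minimum count 10 and total 15, TMM, group means over all libraries, quasi-likelihood F-test), leaving 14187 of 32793 rows. Day 6 contrasts compared genotypes, and their difference from day 3 and from growth medium. Tested on simulated data, the day 6 fit recovered 56%, 76%, 92% and 94% of genes changed 1.5-, 2-, 4- and 8-fold. In that simulation 200 of 14187 genes were changed, equally often up and down, and 1.85% of calls were false. It held neither changes as broad as those here, with 42.9% of genes called, nor a library departing from its group. It therefore cannot give the share of false calls under those conditions.

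The 37 gene lists and the members were chosen with earlier results of these data known. Named genes are Runx1 and, in each list, up to 3 called members with the most positive and 3 with the most negative log2FC (groups apart, a mean of at least 5 CPM), the most abundant by TPM and the most abundant not called. Ranked genes followed the same conditions. Genes of the day 3 interaction were called for that interaction and had a day 6 group mean of at least 5 CPM. For these, neither a day 6 call nor groups apart was required. Others (Myh1, Myh3, Myh4, Myh7b, Col1a2, Tnni1, Atp2a2, Casq2, Dpt, Pfkm, Eno3, Hey1, Hes1, Notch2, Notch3, Jag1, Csf1r and genes named as at or near 0 counts) were chosen after their values were seen. Some genes are not reported here. Exon overlaps used GENCODE M21 on GRCm38.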

Additional observations from a re-analysis of the deposited data

Results flagged for a closer look

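For 1753 genes the genotype difference on day 6 departed from that on day 3, and for 1839 genes from that in growth medium, by an interaction term in the edgeR fit (adjusted p under 0.05). The second number was 1215 without growth-medium WT replicate 1, 1184 without replicate 2 of that group, and 2844 without day 1 KO replicate 2. By the naming rule, 5 genes had the most positive day 3 interaction. Il20rb, an interleukin receptor chain, had an interaction log2FC of 3.51 (SE 0.56, adjusted p = 0.00023), with mean CPM of 1.38 in labelled KO and 0.36 in WT on day 3 and 8.88 and 0.20 on day 6. Hhatl, a muscle and heart protein of the endoplasmic reticulum, had 3.09 (SE 0.64) and went from 1.11 to 9.75 CPM in labelled KO while WT stood at 0.36 and 0.37. Car6, a secreted carbonic anhydrase, had 3.02 (SE 0.59), with 0.24 against 1.81 CPM on day 3 and 6.33 against 5.76 on day 6. P2rx3, an ATP-gated channel, had 2.57 (SE 0.60) and Asb16, a ubiquitin ligase subunit, 2.45 (SE 0.61).

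The 5 most negative interactions rest on groups near 0. Bnc1 had -4.85 (SE 1.52, adjusted p = 0.043), with 0.15 against 12.3 CPM on day 3 and 0 against 12.6 CPM on day 6. Scara3 had -2.93 (SE 0.71), with 0.31 against 13.8 CPM on day 3 and 0.044 against 16.2 on day 6. Adprhl1 had -3.28 (SE 0.61) and Ckmt2, the sarcomeric mitochondrial creatine kinase, -3.10 (SE 0.75). WT stood at 0.029 CPM on day 3 for both, and at 1.99 CPM for both on day 6, with labelled KO at 23.9 CPM (Adprhl1) and 10.7 CPM (Ckmt2). Prl2c2, of a family of near-identical copies among which reads cannot be divided surely, had -2.11 (SE 0.69, adjusted p = 0.047).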

How the results depend on the processing

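The counts of called genes stayed within 1.5 times under RLE scaling, library size alone, DESeq2, no filter, a minimum mean count of 50, limma on log2(TPM + 1) and fits of only the groups compared. On log2(TPM + 0.1) 2068 genes were called higher. At an adjusted p under 0.01 the interactions numbered 776 (day 3) and 1079 (growth medium). With an absolute log2FC of at least 1, 1731 genes differed (944 higher, 787 lower), and the interactions numbered 370 and 606. Leaving out each library of the groups contrasted in turn, and day 1 KO replicate 2 but no other day 1 library, gave 5166 to 7082 called genes, 2525 to 3378 higher, 2459 to 3704 lower, 1125 to 2837 interactions with day 3 and 1184 to 2844 with growth medium. Of 226 named genes, 207 had a value in all 16 alternatives, and 178 of these kept their call in every one. Counting only the alternatives that gave a gene a value, 195 of the 226 did, and no called direction reversed. On log2(TPM + 1) the differences of genes at low levels were smaller, as for Actn2 (4.31) and Mef2c (1.36). Of 37 list medians 31 kept their sign. That of the immune and endothelial markers went from -0.058 to 1.69 with a mean count of at least 50. The median of the cell cycle exit list, 0.04, became -0.028 with library size alone, -0.075 and -0.076 on the TPM scales and -0.0049 to 0.0771 without a single day 6 library, and that of the fibroblast markers became 0.354 with a mean count of at least 50; the cause was not tested.

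Same-numbered libraries did not deviate together on day 6 (correlations of -0.07, 0.028 and -0.24), and no source says that a number pairs them. A replicate block gave 5959 called genes (3075 higher, 2884 lower) and 1644 and 1699 interactions. With 3 libraries per group, a gene that was not called may differ.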
